A study of Mus musculus with 13 samples.

Results

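The 10 genes described here are Pdgfra, Pi16, Fbln1, Dpt, Dcn, Lum, Mfap5, Ly6a, Serpinf1 and Gsn, which are commonly used as markers of fibro-adipogenic progenitors. They were taken by name from the 24015 genes of the deposited table, and all 10 were among the 11876 genes that reached 1 TPM (a transcript's share of all transcripts, scaled for length) or more in at least 3 libraries and were tested. Total RNA from lysates of whole quadriceps of C57BL/6 mice, prepared with a TruSeq RNA kit, was sequenced in 13 libraries. Batch 1 held young mice (3 months, 4 libraries: replicates 1, 3, 4 and 5) and aged mice (over 24 months, 3 libraries: replicates 2, 3 and 4), all injected with vehicle, a mix of ethanol, Cremophor EL and dextrose. Batch 2 held aged mice given the same vehicle (3 libraries: replicates 2, 3 and 8) and aged mice injected with SW033291 at 5 mg/kg (3 libraries: replicates 1, 4 and 6). SW033291 blocks 15-PGDH, which breaks down prostaglandins. Injections were intraperitoneal and daily for 4 weeks. Young and treated mice each exist in 1 batch only, no young mice received the inhibitor, and the labels do not say that each library is a separate animal, so that every p-value here reflects library spread, which may be technical.

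Fibro-adipogenic progenitors are mesenchymal cells that lie between muscle fibres. They produce extracellular matrix and signals that support muscle stem cells, and in damaged or diseased muscle they can give rise to fibrous tissue and fat. The receptor Pdgfra defines them in most sorting schemes, often together with the surface protein Sca-1, which Ly6a encodes. The other genes are less exclusive: Dcn and Lum are also made by tendon cells, Ly6a by endothelial cells and Gsn by many cell types, among them muscle fibres and smooth muscle. In whole muscle, fewer cells of a type and less RNA per cell cannot be told apart.

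Each library gave 10710 to 11687 genes at 1 TPM or more, and correlations across genes between libraries of 1 group lay between 0.946 and 0.991. TPM keep no record of reads, so depth and counting error are unknown. The defining marker Pdgfra was present in all 13 libraries, and none of the 10 genes was listed at 0 anywhere. The muscle fibre markers Acta1, Ckm, Mb, Tnnt3, Atp2a1 and Pygm summed to 113000 TPM or more in every library, against 415 to 1210 TPM for the 10 progenitor genes together. Aged batch 1 replicate 4 stood apart: it had the lowest muscle fibre sum (113000 TPM, against 140000 to 171000 in the other libraries) and held 1710 TPM of 6 neutrophil markers. Aged vehicle batch 2 replicate 2 and SW033291 replicate 4 held 739 and 220 TPM of those markers, and the remaining libraries at most 13.8 TPM.

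Upstream sequences were found in the RefSeq promoter table (build GRCm38.p6) for 6 of the 10 genes: Pdgfra, Pi16, Fbln1, Dpt, Serpinf1 and Gsn. The authors' values rest on another build, mm9. Those of 4 genes are printed because the results turn on these genes: Serpinf1 passed the test with age, Fbln1 and Pi16 had the next strongest age differences, and Pdgfra is the defining receptor. Each shows the 250 bases before the start site, 5′ to 3′, and for Fbln1 the first of its start sites. Capitals mark any match, on either strand, to 6 motifs. The TATA box was searched as TATAAA. The CCAAT box was searched by its own 5 letters. The GC box was searched as GGGCGG. The E-box, which factors of the MyoD and Twist type bind, was searched as CANNTG. The AP-1 site was searched as TGANTCA. The MCAT element was searched as GGAATG.
Serpinf1, chr11:75422624-75422873, minus strand: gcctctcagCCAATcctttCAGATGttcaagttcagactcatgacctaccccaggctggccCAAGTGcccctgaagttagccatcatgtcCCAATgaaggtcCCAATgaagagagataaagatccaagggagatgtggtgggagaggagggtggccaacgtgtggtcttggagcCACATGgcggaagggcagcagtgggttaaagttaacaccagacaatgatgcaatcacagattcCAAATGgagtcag
Fbln1, chr15:85205699-85205948, plus strand: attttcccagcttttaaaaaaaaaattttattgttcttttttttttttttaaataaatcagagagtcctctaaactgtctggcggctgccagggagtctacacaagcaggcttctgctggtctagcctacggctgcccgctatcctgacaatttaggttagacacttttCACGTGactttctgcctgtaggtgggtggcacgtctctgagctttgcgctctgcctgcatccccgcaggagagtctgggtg
Pi16, chr17:29318632-29318881, plus strand: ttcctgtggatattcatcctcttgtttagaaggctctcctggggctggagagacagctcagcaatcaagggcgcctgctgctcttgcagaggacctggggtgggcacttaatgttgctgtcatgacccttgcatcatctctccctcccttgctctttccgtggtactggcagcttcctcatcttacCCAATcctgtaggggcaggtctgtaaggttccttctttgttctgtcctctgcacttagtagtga
Pdgfra, chr5:75152001-75152250, plus strand: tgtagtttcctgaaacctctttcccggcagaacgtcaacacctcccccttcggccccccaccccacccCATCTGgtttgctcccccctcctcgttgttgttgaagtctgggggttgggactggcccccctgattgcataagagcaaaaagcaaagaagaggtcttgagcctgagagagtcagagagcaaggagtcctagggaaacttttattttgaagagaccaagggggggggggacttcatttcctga
The Serpinf1 window held 3 CCAAT boxes, at 241, 160 and 148 bases before the start site, and 4 E-boxes. The Pi16 window held 1 CCAAT box and no E-box, and the Fbln1 and Pdgfra windows each 1 E-box. Of all 32851 windows of this length in the table, 33.8% held a CCAAT box and 66.2% an E-box, and among the 9 windows of the 6 genes these counts were 4 and 8. The GC box (32.7% of all windows) was in 4 of the 9, most of them windows of Gsn. Gsn and Fbln1 each have more than 1 window, and those of Fbln1 overlap and share an E-box. The 9 windows are therefore not separate promoters. The TATA box (12.4%), the AP-1 site (6.75%) and the MCAT element (12.6%) were in 0 of the 9. These matches describe letters in a window and are no evidence of a bound site.

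Levels differed by 2 orders of magnitude among the 10 genes. Gsn, which encodes the actin-severing protein gelsolin, was the most abundant, with a mean of 350.0 TPM over the 13 libraries, followed by Dcn at 205 TPM, Ly6a at 87.6 TPM, Dpt at 38.7 TPM and Serpinf1 at 35.6 TPM. Pi16 (14.8 TPM), Lum (13.4 TPM) and Mfap5 (9.61 TPM) lay lower, and Fbln1 (3.66 TPM) and Pdgfra (3.02 TPM) were the least abundant. Gsn and Dcn thus ranked 343rd and 567th among the 11876 genes, while Pdgfra ranked 9015th. Ly6a varied least between libraries, with its highest level 2.09 times its lowest. Pi16 and Mfap5 varied most, with ratios of 10.4 and 10.6.

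**Figure D1:**
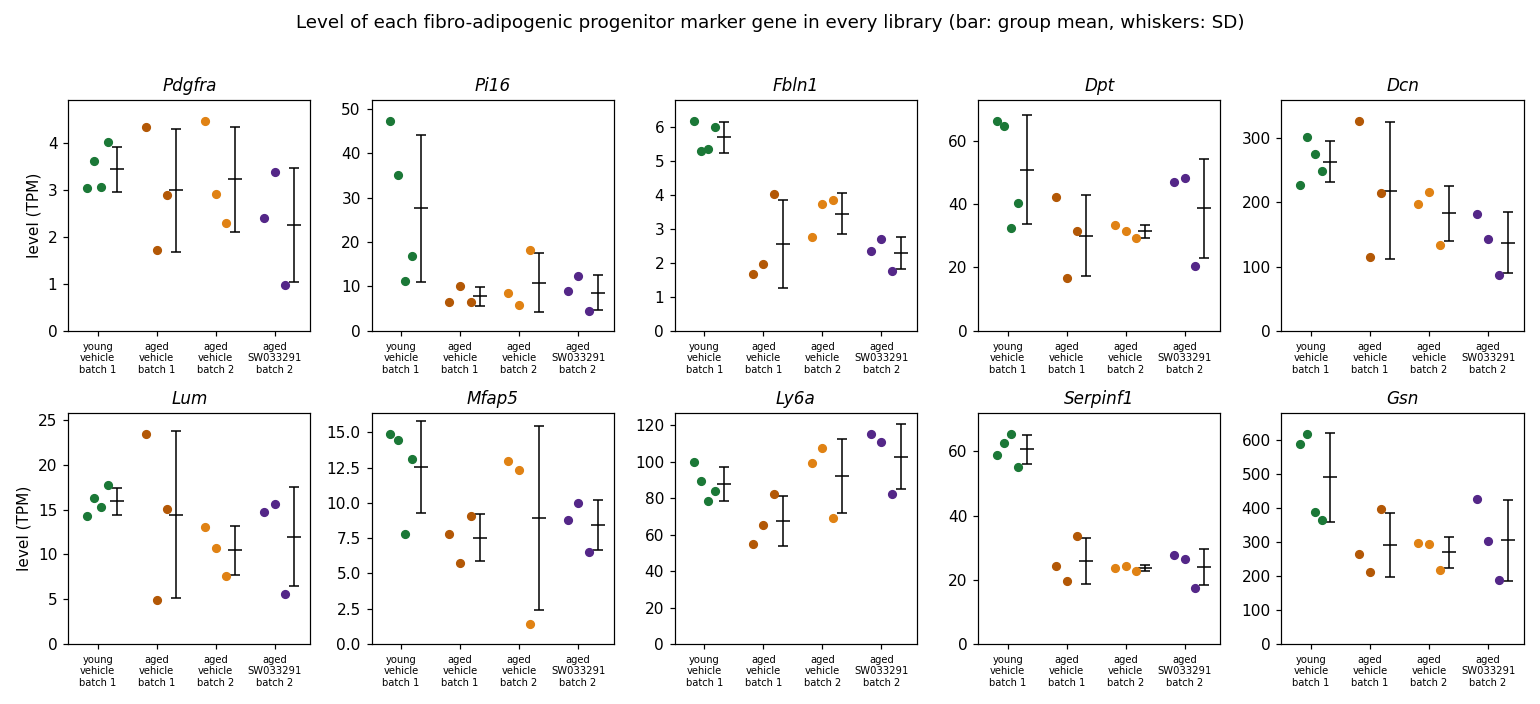
Level in TPM (vertical axis, linear, from 0) of each of the 10 genes in every library, by group, with the group mean as a bar and the SD as whiskers. Serpinf1 and Fbln1 have all 9 aged libraries below all 4 young ones, while the groups of the other genes overlap at some point.

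The first comparison asks which of these genes differ between aged and young vehicle muscle within batch 1. All 10 had lower levels in aged muscle on the log2(TPM + 1) scale, where 38.8% of all genes tested did. The median log2 difference of the 10 genes was -0.70, and that of all genes tested was 0.06. Serpinf1 alone passed the limma test with Benjamini-Hochberg adjustment over all genes (1 of 10), while 0.455% of all genes passed in either direction, 0.0842% lower and 0.37% higher. That split depended on the scaling: 10 genes were called lower and 44 higher, against 20 and 36 with median-of-ratios scaling, 30 and 41 with quantile normalization and 28 and 35 without the 20 most abundant genes. An unadjusted p under 0.05 was found for 6 (Serpinf1, Fbln1, Pi16, Gsn, Dpt and Ly6a), against 2.72% of all genes in the lower direction. Groups did not overlap for 3 of the 10 (Serpinf1, Fbln1 and Pi16), against 2.7% of all genes in that direction. The 10 genes were chosen with earlier results of these data known, so these shares describe them and test nothing. The tenocyte markers Scx, Tnmd, Mkx, Fmod, Thbs4 and Chad summed to 187 to 264 TPM in young and 73.8 to 123 TPM in aged libraries, with Fmod and Thbs4 the most abundant. Of the 5 tested, 4 were lower with age, while Scx, the tendon transcription factor scleraxis, was at 5.25 to 6.66 TPM in young and 9.01 to 10.69 TPM in aged libraries. Their part in the differences was not tested. Most markers of several other cell types were also lower with age, as given below, so this is not particular to the 10 genes.

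Serpinf1 encodes pigment epithelium-derived factor, a secreted serpin that restrains blood vessel growth. It stood at 59.0, 62.7, 65.4 and 55.2 TPM in young replicates 1, 3, 4 and 5, while aged replicates 2, 3 and 4 of that batch gave 19.7, 33.5 and 24.3 TPM. The highest aged library was thus well below the lowest young one. The mean fell from 60.6 ± 4.41 TPM (SD, n = 4) to 25.8 ± 7.05 TPM (SD, n = 3), 57.4% lower, with a log2 difference of -1.23 (SE 0.18, limma adjusted p = 0.0079). Leaving out any 1 of the 7 libraries kept the call, with limma adjusted p from 0.0038 to 0.048, and without the neutrophil-rich aged replicate 4 the difference was -1.20 (limma adjusted p = 0.017).

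Aged mice of batch 2 gave a like level of Serpinf1. Vehicle replicates 2, 3 and 8 stood at 23.8, 24.4 and 22.8 TPM, and SW033291 replicates 1, 4 and 6 at 27.8, 26.5 and 17.5 TPM. All 9 aged libraries therefore lay between 17.5 and 33.5 TPM, below all 4 young ones. Fbln1 was the only other of the 10 genes with that pattern, which 0.783% of all genes tested showed. Young libraries exist in batch 1 only, so across batches age and batch cannot be told apart.

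Among the matrix fibre genes, Fbln1 encodes fibulin-1, a glycoprotein of elastic fibres and basement membranes. It stood at 6.17, 5.28, 5.34 and 6.00 TPM in young replicates 1, 3, 4 and 5 while aged replicates 2, 3 and 4 gave 1.98, 4.03 and 1.66 TPM. The groups were apart, but aged replicate 3 lay closer to the young libraries than to the other aged ones. The log2 difference of -0.97 (SE 0.22) did not pass (limma adjusted p = 0.065). Without any 1 of the 6 other libraries the limma adjusted p was 0.13 to 0.20, with no filter on low values it was 0.12 and with batch 1 alone 0.15. It passed without aged replicate 3 (limma adjusted p = 0.018), a fit that called 54 of all genes. It also passed with array weights (limma adjusted p = 0.027), where 361 of all genes were called, against 54 in the main fit. With aged vehicle libraries of both batches pooled it passed too (limma adjusted p = 0.048). There 0.446% of all genes were called lower and 2.5% in either direction. In that pooled fit age and batch are partly mixed.

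Mfap5, a component of the microfibrils around which elastin is laid down, gave 14.9, 14.5, 7.78 and 13.1 TPM in young replicates 1, 3, 4 and 5. Aged replicates 2, 3 and 4 of batch 1 gave 5.74, 9.10 and 7.80 TPM. Young replicate 4 was within the aged range, and the log2 difference of -0.65 (SE 0.48) did not pass (limma adjusted p = 0.75). In batch 2, vehicle replicate 8 had only 1.40 TPM, the lowest Mfap5 value of all libraries, against 12.99 and 12.36 TPM in replicates 2 and 3. Dpt encodes dermatopontin, which binds decorin and promotes the assembly of collagen fibrils. Its young libraries split into a high pair, replicates 1 and 3 at 66.2 and 64.6 TPM, and a low pair, replicates 4 and 5 at 32.4 and 40.4 TPM. Aged replicates 2, 3 and 4 of batch 1 stood at 16.6, 31.4 and 42.2 TPM, so the groups overlapped, and the log2 difference was -0.77 (SE 0.34, limma adjusted p = 0.47).

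Pi16 encodes peptidase inhibitor 16, a membrane-anchored protein that marks a subset of fibroblasts and progenitors found in many tissues. It had the largest age difference of the 10 genes and also a wide spread among young libraries, with 47.2, 35.1, 11.1 and 16.9 TPM in replicates 1, 3, 4 and 5. Aged replicates 2, 3 and 4 of batch 1 stood at 10.2, 6.54 and 6.55 TPM, all below the lowest young library. The log2 difference was -1.53 (SE 0.46, limma adjusted p = 0.20), which ranged from -1.87 without young replicate 4 to -1.21 without young replicate 1. Vehicle replicate 8 of batch 2 reached 18.3 TPM, within the young range.

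A like split among young libraries appeared in markers of some other cell types. The 6 adipocyte markers (Adipoq, Plin1, Cfd, Lep, Cidec and Retn) summed to 1690 and 866 TPM in young replicates 1 and 3 and to 114 and 214 TPM in replicates 4 and 5. In aged batch 1 they summed to 181, 535 and 270.0 TPM in replicates 2, 3 and 4. Adiponectin (Adipoq) was above 0 in all 13 libraries. The part of adipose tissue in the young levels of Pi16, Dpt and Gsn was not tested.

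Of the cell surface markers, Pdgfra stood at 3.04, 3.63, 3.08 and 4.04 TPM in young replicates 1, 3, 4 and 5 while aged replicates 2, 3 and 4 gave 1.73, 2.90 and 4.36 TPM, so aged libraries lay on both sides of the young ones. The log2 difference was -0.20 (SE 0.29, limma adjusted p = 0.89), and it turned to 0.05 without aged replicate 2 and was -0.44 without aged replicate 4. Ly6a, the gene of Sca-1, gave 100.1, 89.6, 78.3 and 83.9 TPM in young replicates 1, 3, 4 and 5 and 65.1, 82.1 and 55.0 TPM in aged replicates 2, 3 and 4. Its log2 difference of -0.39 (SE 0.18) did not pass (limma adjusted p = 0.48). Its sign turned, to 0.05, when young muscle was set against aged vehicle of batch 2, a contrast that mixes age with batch.

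Dcn and Lum are neighbouring genes on mouse chromosome 10 and encode decorin and lumican, small leucine-rich proteoglycans that bind collagen fibrils and set their spacing. Dcn stood at 226.6, 300.7, 275.6 and 249.2 TPM in young replicates 1, 3, 4 and 5 while aged replicates 2, 3 and 4 gave 114, 214 and 326 TPM. Lum stood at 14.3, 16.4, 15.3 and 17.8 TPM in the same young libraries and at 4.87, 15.1 and 23.4 TPM in the aged ones. In both genes aged replicate 2 was below and aged replicate 4 above every young library. The log2 differences were -0.39 (SE 0.31) for Dcn and -0.35 (SE 0.41) for Lum (limma adjusted p = 0.77 and 0.86), and without aged replicate 2 they were 0.02 and 0.23. Without aged replicate 4 they were -0.74 and -0.80. Gsn stood at 587, 615.9, 388 and 364 TPM in young replicates 1, 3, 4 and 5 while aged replicates 2, 3 and 4 gave 212, 395 and 263 TPM, with a log2 difference of -0.76 (SE 0.28, limma adjusted p = 0.32).

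**Figure D2:**
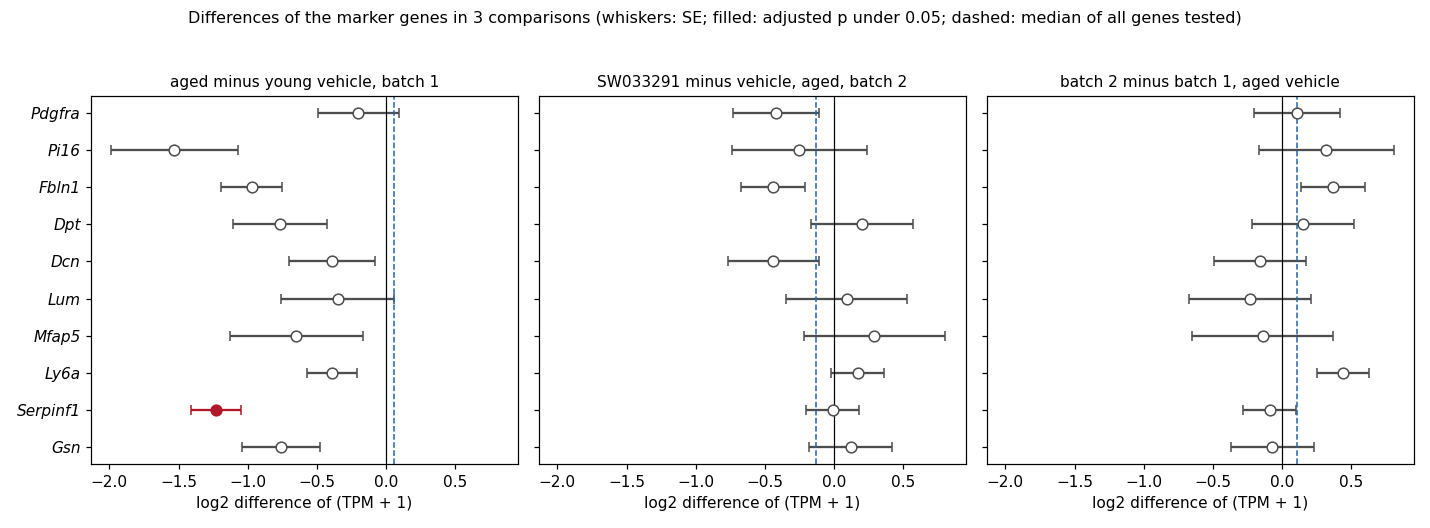
Log2 difference of TPM + 1 (horizontal axis) for the 10 genes (vertical axis) in the age, SW033291 and batch comparisons, with the SE as whiskers, a filled point where the limma adjusted p is under 0.05, and a dashed line at the median of all genes tested. With age all 10 points lie left of 0 and Serpinf1, at -1.23, is the filled one, while in the other comparisons 5 points lie on each side of 0.

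Serpinf1 was also low in aged muscle relative to Dcn of the same library, a scale chosen after the values had been seen. Young replicates 1, 3, 4 and 5 held 26.0, 20.9, 23.7 and 22.2 TPM of Serpinf1 per 100 TPM of Dcn. Aged replicates 2, 3 and 4 of batch 1 held 17.3, 15.7 and 7.43, vehicle replicates 2, 3 and 8 of batch 2 held 12.1, 11.3 and 17.0, and SW033291 replicates 1, 4 and 6 held 15.25, 18.66 and 19.98. All 9 aged libraries were below all 4 young ones, which 4 of 11875 genes (0.0337%) showed: Serpinf1, Wif1 and the collagen genes Col1a1 and Col1a2. Within batch 1, Serpinf1 was the only one of the 9 genes set against Dcn whose aged libraries were all below the young ones, against 0.244% of all genes. Pdgfra per 100 TPM of Dcn was 1.117 to 1.621 in young and 1.336 to 1.516 in aged libraries of batch 1.

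**Figure D3:**
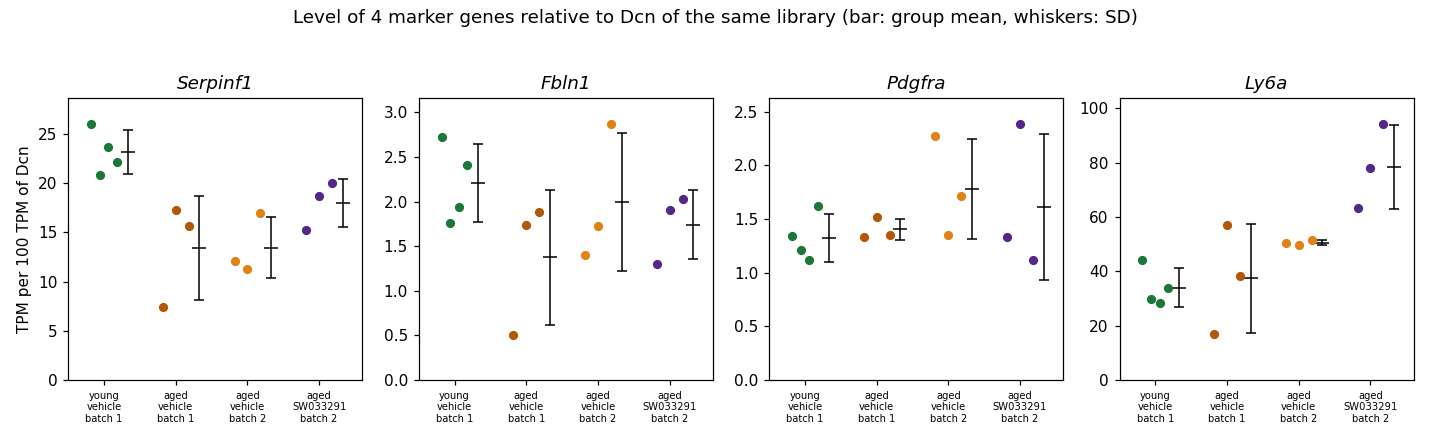
TPM of Serpinf1, Fbln1, Pdgfra and Ly6a per 100 TPM of Dcn in the same library (vertical axis, linear, from 0), by group, with the group mean as a bar and the SD as whiskers. Young libraries hold at least 20.9 of Serpinf1 and aged ones at most 19.98, while the groups overlap for Pdgfra and Fbln1.

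The authors' deposited table of aged against young vehicle listed 6 of the 10 genes, and all 6 were lower with age. Of the 24013 genes in their other table, 3.39% were listed there. That base is not like the 10 genes: only 16666 of its genes have a p there, and all 10 do. The share among expressed genes alone was not computed. In the authors' deposited table Serpinf1 had a log2 fold change of -1.44 (SE 0.16, adjusted p = 7.4e-15), Pi16 of -1.65 (SE 0.38, adjusted p = 0.0011) and Fbln1 of -1.15 (SE 0.27, adjusted p = 0.0018). Gsn had -0.93 (SE 0.20, adjusted p = 0.00026) and Dpt -0.89 (SE 0.23, adjusted p = 0.0069) in the authors' deposited table, and Mfap5 -0.69 (SE 0.24, adjusted p = 0.082). Pdgfra, Dcn, Lum and Ly6a were not among the rows of that table, whose highest adjusted p was 0.0999. Which libraries entered that table is not stated in the labels.

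The second comparison asks whether the inhibitor moved these genes in aged muscle of batch 2. With limma and Benjamini-Hochberg adjustment 0 of the 10 genes passed, as did 0 of all 11876 genes (0.0%). At an unadjusted p under 0.05 the counts were 0 of 10 and 1221 of all genes (10.3%), and an alternative with a pseudocount of 0.1 TPM called 4 genes, 0 of them among the 10. The 10 genes had a median log2 difference of 0.04 where all genes tested had -0.13, with 5 lower and 5 higher, where 71.1% of all genes were lower. Serpinf1 had a mean of 23.9 ± 5.62 TPM (SD, n = 3) with SW033291 and 23.7 ± 0.826 TPM (SD, n = 3) with vehicle, a log2 difference of -0.01 (SE 0.19, limma adjusted p = 0.99). Its difference turned to 0.13 under median-of-ratios scaling.

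Fbln1 was the only one of the 10 genes whose SW033291 and vehicle libraries did not overlap (1 of 10, against 15.1% of all genes in that direction). It stood at 2.36, 2.71 and 1.77 TPM in SW033291 replicates 1, 4 and 6 and at 2.76, 3.73 and 3.85 TPM in vehicle replicates 2, 3 and 8, so each treated library was lower than each vehicle library. The log2 difference was -0.44 (SE 0.23, limma adjusted p = 0.52). Pdgfra and Dcn had like differences of -0.42 (SE 0.31) and -0.44 (SE 0.33), both with a limma adjusted p of 0.62. Pdgfra stood at 2.42, 3.39 and 0.98 TPM in SW033291 replicates 1, 4 and 6, against 4.48, 2.93 and 2.30 TPM in vehicle replicates 2, 3 and 8. Lum, Ly6a, Gsn, Dpt and Mfap5 had log2 differences of 0.09, 0.17, 0.12, 0.20 and 0.29 (limma adjusted p from 0.75 to 0.95). For Mfap5 the mean TPM differed the other way, 8.44 with SW033291 and 8.92 with vehicle, since vehicle replicate 8 at 1.40 TPM weighs more on the log scale.

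SW033291 replicate 6 was the lowest library of its group for all 10 genes, and the lowest of all 13 libraries for 5 of them. Without it the log2 differences of Dcn and Pdgfra were -0.15 and -0.10, and those of Dpt, Lum and Gsn 0.59, 0.52 and 0.43. Serpinf1 and Pi16 turned to 0.19 and 0.11. None of the 10 genes passed in that fit either, with limma adjusted p of at least 0.60. The authors' deposited table of SW033291 against vehicle held all 10 genes, none with an unadjusted p under 0.05, against 2.74% of the genes with a p there. In the authors' deposited table Serpinf1 had a log2 fold change of 0.21 (SE 0.28, p = 0.44), and the lowest p of the 10 genes was that of Gsn (log2 fold change 0.34, SE 0.21, p = 0.099).

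Relative to Dcn of the same library, 3 of the 9 other genes had all SW033291 libraries above all vehicle libraries of batch 2, against 5.05% of all genes. Per 100 TPM of Dcn, Ly6a stood at 63.21, 77.98 and 94.22 in SW033291 replicates 1, 4 and 6 and at 50.3, 49.7 and 51.7 in vehicle replicates 2, 3 and 8. Gsn stood at 234, 212 and 214 against 151, 135 and 162, and Dpt at 25.83, 33.97 and 23.42 against 16.99, 14.48 and 21.87. Of the other libraries, young replicate 1 had Gsn and Dpt as high (259 and 29.2) and Ly6a lower (44.2). The 3 ratios share Dcn as their divisor, Dcn itself had a lower mean with SW033291, and this scale was chosen after the values had been seen. With 3 libraries in each group an exact permutation test could not go below a two-sided p of 0.1, and the ratios were not tested. The 6 adipocyte markers summed to 1780, 169 and 202 TPM in SW033291 replicates 1, 4 and 6 and to 115, 105 and 322 TPM in vehicle replicates 2, 3 and 8, and their part in these ratios was not tested.

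Aged vehicle muscle was compared between batches to see how far 1 labelled group differs. None of the 10 genes passed, while 2.25% of all genes did in either direction (limma with Benjamini-Hochberg adjustment), and 1 of 10 had an unadjusted p under 0.05, against 18.1% of all genes. That was Ly6a, at 99.1, 107.7 and 69.3 TPM in vehicle replicates 2, 3 and 8 of batch 2, with a log2 difference of 0.44 (SE 0.19, limma adjusted p = 0.24). The 10 genes had a median of 0.02 in this comparison and all genes tested one of 0.11. No gene of the 10 had batches that did not overlap, which 16.5% of all genes showed. This comparison shares its libraries with the age and SW033291 comparisons.

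By order of group means, young vehicle was the highest group for 9 of the 10 genes. The exception was Ly6a, with SW033291 highest at 103 ± 17.8 TPM (SD, n = 3). This order mixes age with batch, and the share of all genes with young highest was not computed. The ranges of groups next to each other in that order overlapped in all cases except young against the next group for Serpinf1 and Fbln1. The lowest group differed from gene to gene. SW033291 was lowest for Pdgfra, Fbln1 and Dcn, aged vehicle of batch 1 for Pi16, Dpt, Mfap5 and Ly6a, and aged vehicle of batch 2 for Lum, Serpinf1 and Gsn.

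Across the 13 libraries the 10 genes tended to move together. Pearson's r of log2(TPM + 1) was positive for 44 of 45 pairs with a median of 0.53, and for 42 of 45 with a median of 0.48 after the group means had been subtracted. These values are descriptions over 13 libraries that share groups and batches, with no test. Pairs of other genes were not examined, so the values do not show a trait particular to the 10 genes. Dcn, Lum and Pdgfra formed the closest set within groups, with r of 0.93 (Dcn and Lum), 0.92 (Pdgfra and Lum) and 0.80 (Pdgfra and Dcn). Serpinf1 was closest to Fbln1 over all libraries (0.87) and to Gsn within groups (0.79). Pi16 was nearly unrelated to Pdgfra (0.04), Dcn (-0.19) and Lum (-0.07) within groups. Ly6a and Dcn had r of -0.04 over all libraries and of 0.31 within groups.

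**Figure D4:**
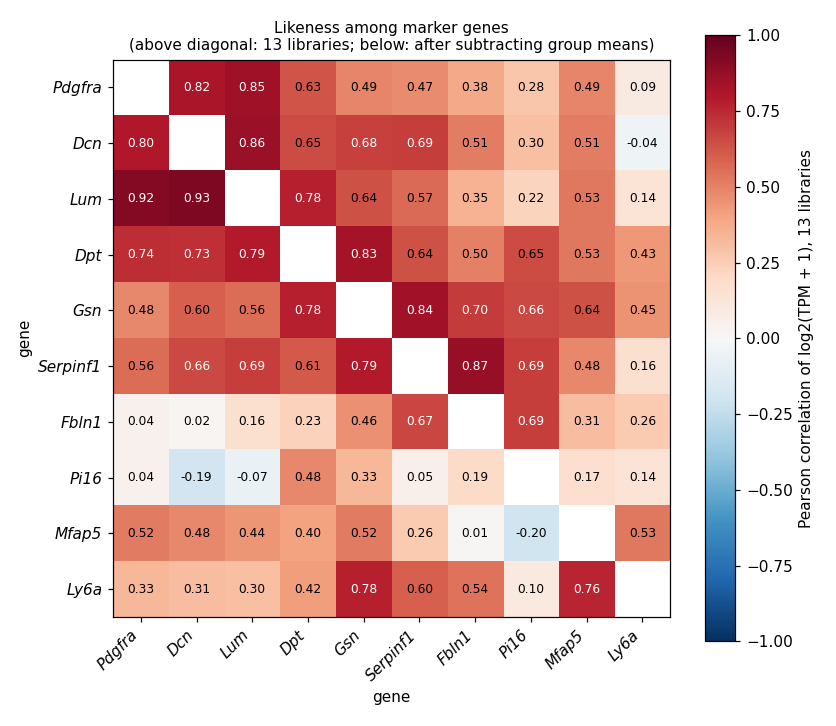
Pearson correlation of log2(TPM + 1) for each pair of the 10 genes (both axes), by colour and printed value, over 13 libraries above the diagonal and after subtracting group means below it. Dcn, Lum and Pdgfra form a block of 0.80 to 0.93 below the diagonal, where Pi16 has values from -0.20 to 0.48.

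The level of the 10 genes as a whole, the mean of their standardised log2(TPM + 1), was highest in young replicates 3 and 1 (1.07 and 1.04) and lowest in SW033291 replicate 6 (-1.36), aged batch 1 replicate 2 (-1.20) and aged vehicle batch 2 replicate 8 (-0.77). The other aged libraries lay between -0.13 and 0.13, below young replicates 4 and 5 at 0.36 and 0.66. Of the other 11866 genes tested, the 10 most like this profile were Cd34, Pcsk6, Sdc2, Tgfbi, Loxl2, Axl, Sdc1, Igfbp6, Chsy1 and Nid1, with r from 0.89 to 0.97 over 13 libraries, where the median of all genes was -0.02 and the 95th percentile 0.59. Cd34, a surface sialomucin used to sort progenitors and endothelial cells, was the closest, with r of 0.97 over all libraries and 0.98 within groups. It stood at 35.0, 36.1, 25.6 and 28.8 TPM in young replicates 1, 3, 4 and 5, and at 14.8, 19.6 and 15.3 TPM in aged batch 1 replicate 2, aged vehicle batch 2 replicate 8 and SW033291 replicate 6, its lowest libraries. Its age difference was -0.50 (limma adjusted p = 0.49), and none of the 10 genes closest to the profile passed with age.

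Relatives of the 10 genes were read from lists written from general knowledge. None of the 71 genes tested in 7 lists passed with age, SW033291 or batch in limma with Benjamini-Hochberg adjustment. Of all genes, 0.455%, 0.0% and 2.25% passed. Besides Fmod, described below, some listed genes passed with age in other fits. With array weights (361 of all genes called) these were Clec3b, Serpine2 and Serpinb6a. With both aged vehicle batches pooled (297 called) they were Prelp and Serpinb6a. With aged vehicle of batch 2 in place of batch 1 (1679 called) they were Prelp, Serpinb6a and Svil. The fits with batch 2 mix age with batch. Prelp also passed without aged replicate 3. Of 26 tested genes known from progenitors and fibroblasts, 20 were lower with age, with a median log2 difference of -0.38 against 0.06 for all genes. Among its most abundant members, Smoc2, a secreted calcium-binding matrix protein, had a log2 difference of 0.04 (50.5 to 52.9 TPM), Cd55, a complement regulator, of 0.57 (39.3 to 61.0 TPM), and Clec3b, which encodes tetranectin, of -0.70 (46.4 to 28.4 TPM), with limma adjusted p of 0.97, 0.20 and 0.18. Without aged replicate 4 the difference of Cd55 was 0.30. The sign for Smoc2 turned to -0.03, -0.04 and -0.06 under the 3 other scalings.

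Genes of the PDGF system, whose ligands act on Pdgfra and Pdgfrb, had a median of -0.28 with age over 5 tested genes. The ligand gene Pdgfa stood at 23.3 ± 0.853 TPM (SD, n = 4) in young and 27.3 ± 1.59 TPM (SD, n = 3) in aged muscle of batch 1, a log2 difference of 0.22 (limma adjusted p = 0.73). Pdgfb and the receptor gene Pdgfrb had -0.28 and -0.53 (limma adjusted p = 0.73 and 0.60), and -0.18 each without aged replicate 4. The other small leucine-rich proteoglycans had a median of -0.77 over 8 genes, 7 of them lower. Fmod, which encodes fibromodulin and is also a tendon gene, stood at 114 ± 27.7 TPM (SD, n = 4) in young and 46.9 ± 22.1 TPM (SD, n = 3) in aged muscle, with a log2 difference of -1.33 (SE 0.27, limma adjusted p = 0.052). The limma adjusted p was 0.033 to 0.047 under the 3 other scalings and 0.015 without aged replicate 3. It was 0.046 with a filter at 5 TPM, 0.049 with a pseudocount of 0.5 TPM and 0.017 with array weights. With both aged vehicle batches pooled it was 0.019, and with aged vehicle of batch 2 in place of batch 1 it was 0.032. Those fits mix age with batch. The limma adjusted p of Fmod was 0.084 to 0.15 without any 1 of the 6 other libraries and 0.11 with no filter on low values. It was 0.085 without a trend and 0.13 with batch 1 alone. Prelp and Bgn, further proteoglycans of this family, had -0.89 and -0.34 (limma adjusted p = 0.16 and 0.71).

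Fibulins and microfibril proteins had a median of -0.45 over 16 genes, 14 of them lower. Fbln2, Fn1 (fibronectin) and Mfap1a, which despite its symbol encodes a splicing factor, had log2 differences of -0.52, -0.84 and 0.06 (limma adjusted p = 0.49, 0.73 and 0.93). Without aged replicate 4 that of Fbln2 was -0.25. The sign for Mfap1a turned to -0.01 with quantile normalization and to -0.03 without the 20 most abundant genes. The gelsolin family had a median of 0.14 over 5 genes, 0 of them lower, next to -0.76 for Gsn. Svil (supervillin), Flii and Capg had 0.21, 0.06 and 0.08, and Flii and Capg turned below 0 under at least 1 other scaling. Of the Ly6 family, Ly6c1, Ly6e and Ly6c2 had -0.27, -0.29 and 1.18 (limma adjusted p = 0.80, 0.79 and 0.73), with Ly6c2 at 0.105 ± 0.122 TPM (SD, n = 4) in young muscle and 4.01 ± 6.77 TPM (SD, n = 3) in aged muscle. Without the neutrophil-rich aged replicate 4 the 3 differences were 0.14, -0.05 and -0.01. Serpins and other peptidase inhibitors had a median of -0.27 over 8 genes, next to -1.23 for Serpinf1. Serpinb6a, an intracellular serpin, Serpine2, a thrombin inhibitor, and Timp3, an inhibitor of metalloproteinases, had 0.54, -0.40 and -0.15 (limma adjusted p = 0.10, 0.22 and 0.89).

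Outside the 10 genes, 1 of the markers of other cell types passed with age. Of the tenocyte markers, none of the 6 was at 0 in all libraries of a group and 1 of 5 tested passed: Thbs4, which encodes the matrix protein thrombospondin-4, fell from 72.5 ± 8.80 TPM (SD, n = 4) to 23.5 ± 6.20 TPM (SD, n = 3), a log2 difference of -1.61 (SE 0.26, limma adjusted p = 0.015). Scx had the opposite sign, 6.11 ± 0.614 TPM (SD, n = 4) in young and 9.62 ± 0.932 TPM (SD, n = 3) in aged muscle of batch 1. These groups did not overlap, and the log2 difference was 0.58 (SE 0.34, limma adjusted p = 0.66). In batch 2 Scx stood at 14.39, 6.47 and 13.16 TPM in vehicle replicates 2, 3 and 8. It was at 12.1, 3.36 and 12.27 TPM in SW033291 replicates 1, 4 and 6, so not all aged libraries were above the young ones. The summed tenocyte level had r of 0.77 with the level of the 10 genes over 13 libraries. For endothelial, smooth muscle and pericyte, macrophage and Schwann cell markers r was 0.58, 0.56, 0.54 and 0.52. For adipocyte, satellite cell, muscle fibre and neutrophil markers it was 0.41, 0.28, 0.25 and -0.12. Differences between groups enter all of these values. Muscle fibre markers summed to 165000 to 171000 TPM in young and 113000 to 159000 TPM in aged libraries, without overlap, and 5 of 6 were lower. Neutrophil markers, 3 of 6 at 0 in all young libraries, were lower for 0 of 6, and Schwann cell markers for 3 of 6. Adipocyte markers were lower for 6 of 6, with a median log2 difference of -0.7, and endothelial markers for 6 of 6 (median -0.16). Smooth muscle and pericyte markers were lower for 5 of 6 (median -0.35), macrophage markers for 4 of 5 tested (median -0.5) and satellite cell markers for 2 of 4 tested (median -0.27). The sums that follow are for young and for aged libraries of batch 1, in that order. Endothelial markers summed to 90.6 to 133 and 63.6 to 145 TPM. Smooth muscle and pericyte markers summed to 75.2 to 133 and 64.5 to 152 TPM, and Schwann cell markers to 39.7 to 77.9 and 20.7 to 99.5 TPM. Satellite cell markers summed to 30.1 to 39.4 and 26.6 to 37.6 TPM, and macrophage markers to 19.97 to 74.8 and 26.44 to 41.96 TPM. Most of the satellite cell sum was Myod1. Pax7 and Myf5 were below 1 TPM in every library and were not tested. Pax7 stood at 0.41 to 0.81 TPM in young and 0.10 to 0.24 TPM in aged libraries of batch 1. In vehicle replicates 2, 3 and 8 of batch 2 it stood at 0.54, 0.69 and 0.0 TPM. Tendon cells share Dcn, Lum, Fbln1 and Dpt with fibro-adipogenic progenitors, and the part of tendon tissue in the age differences was not tested.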

How the data were processed

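The authors deposited 1 table of TPM (24015 genes, 13 libraries) and 2 comparison tables. STAR, RSEM, DESeq2, DESeq and genome build mm9 are named per the submitters' processing notes, without versions. Per the file headers, the columns of these comparisons are log2 fold changes, SEs, p-values, a test statistic (a score) and a mean of normalised counts (a signal). Gene names of the TPM table were not on their own rows: 27 spreadsheet dates were undone, and all names were sorted in byte order and put on the rows as they stood. Across genes, mean TPM and the level in the authors' SW033291 table then had a Spearman correlation of 0.9597, against -0.0175 before, and every value rests on this order.

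Tests used limma 3.58.1 (R 4.3.3) on log2(TPM + 1). Genes needed 1 TPM in 3 libraries. The model had 1 coefficient per group, 1 variance estimate for all 13 libraries and a trend on expression. A change of a gene near 1 TPM is understated on this scale. P-values were adjusted over all 11876 genes with 0.05 as the threshold. The script was tested on simulated data, with changes larger than any age difference of the 10 genes and only in genes of low spread. That run does not show how well smaller changes or noisier genes are found. The genes named are the 10 markers, the 10 most like them in profile, and of each list the genes called plus the 3 most abundant. The markers and lists were chosen with earlier results of these data known. The alternatives tried are given in the closing section.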

Additional observations from a re-analysis of the deposited data

Results flagged for a closer look

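Of 31 genes checked in the 4 young libraries, 2 had 1 library far from the other 3, and chance gives about 1 in 20. Pdgfb, a ligand gene of the PDGF system, stood at 23.17 TPM in young replicate 1 and at 16.46 to 16.71 TPM in the other young libraries. Pdgfrb, the second PDGF receptor gene, stood at 8.96 TPM in young replicate 4 and at 10.76 to 11.11 TPM in the others. None of the 10 marker genes had such a library among the young ones. Groups of 3 libraries are too small for this check.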

How the results depend on the processing

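All 10 genes kept a lower level with age under other pseudocounts, no filter and other scalings, as did the 9 tested with a filter at 5 TPM, which removed Pdgfra. Serpinf1 ranged from -1.43 to -1.06, past the threshold in every alternative except the replicate block (-1.14, limma adjusted p = 0.64). Of the 10 genes, 1 was called with age, against 2 with array weights, 2 with both aged vehicle batches pooled, 0 with the replicate block and 1 to 2 when 1 library was left out, the second being Fbln1. Of all genes, 54 were called with age, against 27 with no filter, 31 without a trend, 361 with array weights, 24 with batch 1 only, 297 with both batches pooled and 1679 with aged vehicle of batch 2 in place of batch 1. Leaving out 1 library gave 19 to 92. With SW033291, 0 genes were called, against 4 with a pseudocount of 0.1 TPM, 1 without a trend, 3 without the neutrophil-rich libraries (chosen after seeing the data) and 0 to 1 when 1 library was left out. Between batches, 267 were called, against 152 and 98 with median-of-ratios and quantile scaling, 112 without a trend, 1766 with array weights, 1037 without the neutrophil-rich libraries and 18 to 1643 when 1 library was left out. Between batches the calls were 63 lower and 204 higher, against 103 and 49 with median-of-ratios scaling and 45 and 53 with quantile normalization. The cause of these differences was not tested.

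With the replicate number as a block, the fits used only the libraries of the groups compared. They had nearly as many coefficients as libraries, and only same-numbered libraries informed the difference. This block left 6 genes called with age and 905 between batches. It turned Pdgfra, Lum, Bgn and Flii to 0.07, 0.24, 0.01 and -0.09 with age, and gave Fbln1 and Fmod limma adjusted p of 1.0 and 0.87, and Pi16, Dcn, Lum, Mfap5 and Gsn to -0.20, 0.40, 0.40, 0.73 and 0.03 between batches. Same-numbered libraries had deviations that correlated at -0.15 to 0.17, and share only a number. No paired analysis was possible for SW033291 because its groups share no replicate number.

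With age, signs also turned for Ly6a (0.05), Capg (-0.08), Ly6c1 (0.01) and Timp3 (0.19) with aged vehicle of batch 2 in place of batch 1, for Timp3 (0.02) with both batches pooled and for Ly6c1 (0.06) with array weights. Flii and Smoc2 were at -0.01 and -0.03 with median-of-ratios scaling and at -0.03 and -0.04 with quantile normalization, where Mfap1a was at -0.01. Without the 20 most abundant genes, Capg, Flii, Mfap1a and Smoc2 were at -0.01, -0.04, -0.03 and -0.06. With SW033291, Serpinf1 turned to 0.13, 0.12 and 0.03 under these 3 scalings, and array weights turned Lum and Mfap5 to -0.03 and -0.08. Between batches, array weights turned Dcn, Lum and Mfap5 to 0.22, 0.26 and 0.25, and leaving out neutrophil-rich libraries turned Dcn and Lum to 0.12 and 0.05.

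Leaving out 1 library at a time also turned signs. With age the ranges were -0.44 to 0.05 for Pdgfra, -0.74 to 0.02 for Dcn, -0.80 to 0.23 for Lum, -0.01 to 0.18 for Capg, -0.15 to 0.37 for Flii, -0.54 to 0.14 for Ly6c1, -0.01 to 1.83 for Ly6c2 and -0.14 to 0.17 for Smoc2. With SW033291 they were -0.58 to 0.18 for Pi16, -0.01 to 0.59 for Dpt, -0.15 to 0.52 for Lum, -0.55 to 0.72 for Mfap5, -0.02 to 0.32 for Ly6a, -0.13 to 0.19 for Serpinf1 and -0.16 to 0.43 for Gsn. Between batches they were -0.14 to 0.34 for Pdgfra, -0.11 to 0.65 for Pi16, -0.21 to 0.44 for Dpt, -0.56 to 0.19 for Dcn, -0.81 to 0.21 for Lum, -0.57 to 0.70 for Mfap5, -0.26 to 0.11 for Serpinf1 and -0.27 to 0.17 for Gsn. TPM hold no read counts, so the counting error of Pdgfra and Fbln1, the least abundant of the 10, is unknown.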
